A study of Homo sapiens with 18 samples.

Results

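Of 22034 genes counted in VCaP cells, 8 were at least 2-fold above DMSO at 4 h of PBITE-1 and back to within 25% of it, or below it, at 12 h. PBITE-1 is a small molecule that binds the PNT domain of ERG, and VCaP is a prostate cancer cell line in which the TMPRSS2-ERG fusion drives this ETS transcription factor. The 8 genes were chosen on the measured CPM (the count of a gene divided by the total of its sample and scaled to 1000000). A gene was selected when its mean CPM at 4 h was at least 5, the 4 h to DMSO ratio of mean CPM plus 0.5 was at least 2, and the same ratio at 12 h was at most 25% above 1. In order of the 4 h ratio they were H4C16, LFNG, CCNJ, UBAP1L, TIFA, KLF10, SPRY2, and ESRRG. One of them, H4C16, was a histone gene, none was in a list of stress genes, and 5 were in no list.

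The 18 samples formed 6 groups of 3. Parental VCaP cells received DMSO or 50 µM PBITE-1 for 4, 8, or 12 h, and the 3 times shared the same DMSO samples, for which no collection time was given. VCaP-shERG cells, which carry a doxycycline-inducible hairpin against ERG, received DMSO (shERG DMSO) or 1 µg/mL doxycycline (Dox). Cells with Dox but without the hairpin were not analysed here, so the response to Dox itself and that to the hairpin cannot be told apart, and the labels give no duration for Dox. Whether the VCaP-shERG cells were a pool or a single clone was not given in the sources used here.

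ERG, the targeted gene, was counted at 398, 410, and 419 CPM in the shERG DMSO samples and at 174, 182, and 183 CPM after Dox. It was lower in 3 of 3 Dox samples (log2 fold change -1.45 ± 0.04 SE, limma-voom adjusted p = 3.29e-22). In the parental cells ERG was at 287 to 304 CPM with DMSO, 177 to 183 CPM after 4 h of PBITE-1, 89.5 to 94.7 CPM after 8 h, and 88.4 to 103 CPM after 12 h. ERG was therefore below its DMSO level at each time at which the 8 genes are described. All 9 markers of prostate luminal epithelium were counted in every sample, with a sum of 3295 to 9678 CPM, whereas 3 leukocyte markers summed to at most 0.267 CPM, 2 endothelial markers to at most 1.95 CPM, and 3 fibroblast markers to at most 9.70 CPM. Totals were 11308600 to 17483423 counts per sample, so that 3 counts corresponded to 0.172 to 0.265 CPM. RNA was taken from whole cultures, in which fewer cells of a type and less RNA per cell cannot be told apart.

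Genes whose mRNA rises and returns within hours often act as brakes or relays of signalling. Short-lived transcripts and feedback on their own induction can limit how long such genes stay high, and neither was measured here. The 8 genes belong to different pathways. LFNG is a Golgi enzyme that adds N-acetylglucosamine to O-fucose on Notch receptors and so changes which ligands they respond to. TIFA is an adaptor that joins the kinase ALPK1 to TRAF6 and NF-κB, SPRY2 restrains receptor tyrosine kinase signalling to ERK, and KLF10 is a zinc finger repressor induced early by TGF-β. ESRRG is an orphan nuclear receptor of the estrogen-related family that controls genes of oxidative metabolism, and CCNJ encodes cyclin J, whose role is little known. UBAP1L is a relative of UBAP1, a subunit of the ESCRT-I sorting complex, and H4C16 encodes histone H4 from a gene outside the main histone clusters.

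The sequences before the starts of these genes are shown because the rise was measured as RNA, and they let their promoters be compared. RefSeq promoter windows (GRCh38.p14) were found for 7 of the 8 genes, all but KLF10. The windows of 5 genes that touched no annotated exon are printed below, each with the 250 bases before the start, 5′ to 3′ on the strand of the gene. Capitals mark matches on either strand to a TATA box with the letters TATAAA, a GC box with the letters GGGCGG, the core of ETS sites with the letters CCGGAA, or a metal response motif with the letters TGCGCNC. The windows lie at chr7:2512279-2512528, plus strand (LFNG), chr4:112285905-112286154, minus strand (TIFA), chr15:65115201-65115450, minus strand (UBAP1L), chr12:14771132-14771381, minus strand (H4C16), and chr13:80341127-80341376, minus strand (SPRY2).
LFNG: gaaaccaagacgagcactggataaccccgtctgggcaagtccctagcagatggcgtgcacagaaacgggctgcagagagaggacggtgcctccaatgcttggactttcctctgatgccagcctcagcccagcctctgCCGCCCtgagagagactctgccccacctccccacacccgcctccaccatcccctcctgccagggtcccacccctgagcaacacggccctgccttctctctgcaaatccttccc
TIFA: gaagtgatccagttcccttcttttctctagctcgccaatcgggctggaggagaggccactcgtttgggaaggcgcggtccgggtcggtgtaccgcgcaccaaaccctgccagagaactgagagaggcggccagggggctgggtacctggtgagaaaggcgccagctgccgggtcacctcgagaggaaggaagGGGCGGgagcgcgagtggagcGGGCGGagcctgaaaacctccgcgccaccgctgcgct
UBAP1L: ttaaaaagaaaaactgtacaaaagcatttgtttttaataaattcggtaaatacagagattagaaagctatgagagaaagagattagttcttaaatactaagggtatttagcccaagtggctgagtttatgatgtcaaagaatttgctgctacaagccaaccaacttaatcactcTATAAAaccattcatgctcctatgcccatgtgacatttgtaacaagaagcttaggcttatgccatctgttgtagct
H4C16: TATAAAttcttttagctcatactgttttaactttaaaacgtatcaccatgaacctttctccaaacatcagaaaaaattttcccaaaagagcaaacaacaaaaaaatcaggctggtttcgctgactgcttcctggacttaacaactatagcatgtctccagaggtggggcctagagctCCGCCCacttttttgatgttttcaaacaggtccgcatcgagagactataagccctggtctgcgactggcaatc
SPRY2: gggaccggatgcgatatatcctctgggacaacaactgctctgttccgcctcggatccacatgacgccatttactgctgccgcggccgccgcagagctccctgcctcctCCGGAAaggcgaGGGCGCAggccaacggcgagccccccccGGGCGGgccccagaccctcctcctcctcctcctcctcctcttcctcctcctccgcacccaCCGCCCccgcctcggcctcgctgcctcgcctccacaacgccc

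The GC box was the most frequent match, in 5 of the 17 windows of the 7 genes (1 each for ESRRG, H4C16, LFNG, SPRY2, and TIFA), and it occurs in 42.6% of all 35116 windows. TATAAA was found in 2 of the 17, before H4C16 at 250 bases from the start, and before UBAP1L at 76 bases, against 10.7% of all windows. One window of SPRY2 alone had an ETS core (CCGGAA, 142 bases before the start; 14.5% of all windows) and a metal response match (TGCGCNC, 130 bases before it; 16.8%), which do not overlap each other. These distances are to the RefSeq start, which for this SPRY2 window lies 175 bases from the GENCODE start of the gene. The letters GAANNTTC of a heat shock element (5.78% of all windows), TGANTCA of AP-1 (6.57%), TGACGTCA of a CRE (1.65%), and CACGTG of an E-box (6.34%) were in none of the 17 windows of the 7 genes. Base composition varied widely among the printed windows, from 34.0% G and C for UBAP1L to 70.4% for SPRY2, with a median of 58.0% over all windows. None of the letters searched was common to the 7 genes.

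In the GENCODE 29 annotation all 8 genes were protein-coding and lay on 8 different chromosomes. They were mostly short, and 7 of 8 had a gene length below the median of the tested genes (32628 bases), with 3133 bases for H4C16, 4976 for SPRY2, and 7124 for KLF10. ESRRG was the exception, with 634510 bases. The longest transcript had 2 exons for H4C16, UBAP1L, TIFA, and SPRY2, against a median of 8 over the tested genes. 

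Rises of this kind were few. Of 10472 genes with a mean of at least 5 CPM at 4 h, 486 had a 4 h ratio of at least 2, and 445 of these (91.6%) were still at a ratio of 2 or more at 12 h. A further 33 lay between this 12 h limit and 2, which left the 8 genes (1.65% of 486). In the plot of the 4 h against the 12 h ratio the 8 genes form the lower edge of the cloud, and 7 of them lie between 0.965 and 1.23 on the 12 h axis. ESRRG lies apart at 0.493.

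**Figure D1:**
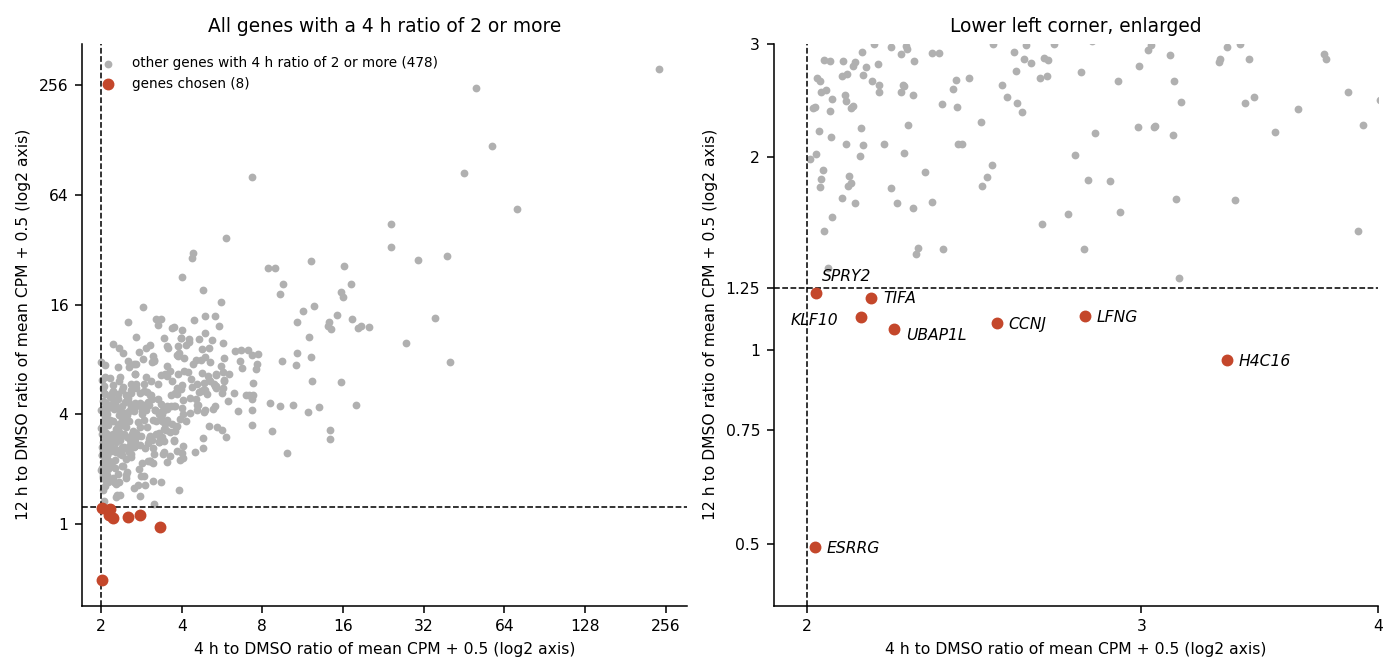
Ratio of mean CPM plus 0.5 to DMSO at 4 h (x axis) and at 12 h (y axis), both on log2 axes, for the 486 genes with a 4 h ratio of 2 or more, with the lower left corner enlarged on the right. Dashed lines are the limits on the 4 h and 12 h ratios that chose the 8 genes (red), which by their choice lie below the 478 other genes (grey), and ESRRG lies lowest at 0.493.

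The limits divided genes with close values. At 4 h the ratios were 2.02 for ESRRG, 2.02 for SPRY2, and 2.13 for KLF10, the lowest inside, whereas ZNF627, whose ratio rounds to 2.00, KCNMA1 (1.88), and RARA (1.80) were outside. At 12 h SPRY2 (1.23), TIFA (1.21), and LFNG (1.13) were the highest inside, and ICAM1 (1.30), CSKMT (1.34), and ZNF799 (1.41) the lowest outside. UBAP1L was just above the minimum of 5 CPM at 5.01, and ASTL (4.87 CPM), FZD10 (3.68 CPM), and SLC25A34 (3.15 CPM) were just below it. When each of the 9 DMSO, 4 h, and 12 h samples was left out in turn, H4C16, LFNG, CCNJ, and KLF10 were chosen in 9 of 9 repeats, UBAP1L in 8, TIFA and ESRRG in 6, and SPRY2 in 4.

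The 8 h samples did not enter the choice, although the DMSO samples with which they were compared did. At 8 h most of the 8 genes were still high. All 8 passed the filter on low counts, and 5 of 8 were higher at 8 h at an adjusted p under 0.05 and a log2 fold change above 1 (H4C16, LFNG, TIFA, CCNJ, and UBAP1L), against 14.9% of all 14164 genes tested. By the ratio of mean CPM plus 0.5, 5 of the 8 were at 2 or more at 8 h, against 479 (98.6%) of the 486 genes with a 4 h ratio of 2 or more. None of the 8 was called lower, against 8.86% of all genes. At the adjusted p alone 7 of 8 had changed, against 72.9% of all genes, so that most of the table had changed by this measure. The median log2 fold change at 8 h was 1.35 over the 8 genes and -0.02 over all genes tested. All genes are an unlike reference, since the 8 were chosen for a rise over the same DMSO samples. Over the 486 genes with a 4 h ratio of 2 or more, the median 8 h ratio was 4.55. The highest 8 h ratio among the 8 was 4.12 (H4C16). The 8 genes thus fell into a group of 5 that held its rise to 8 h, KLF10 and SPRY2, which were between their 4 h and DMSO levels, and ESRRG, which was back at its DMSO level. The response to Dox, in samples that had no part in the choice, went either way, with 0 of 8 called higher (12.0% of all genes) and 2 of 8 called lower (7.19%). There, 5 of 8 had an adjusted p under 0.05, against 70.4% of all genes, and the median log2 fold change was -0.24 over the 8 genes and 0.02 over all genes. The median of the 8 rested on the scaling and on single samples, being 0.02 with scaling by the library size alone (0.28 over all genes), -0.07 without Dox sample 2, and -0.38 without Dox sample 3.

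**Figure D2:**
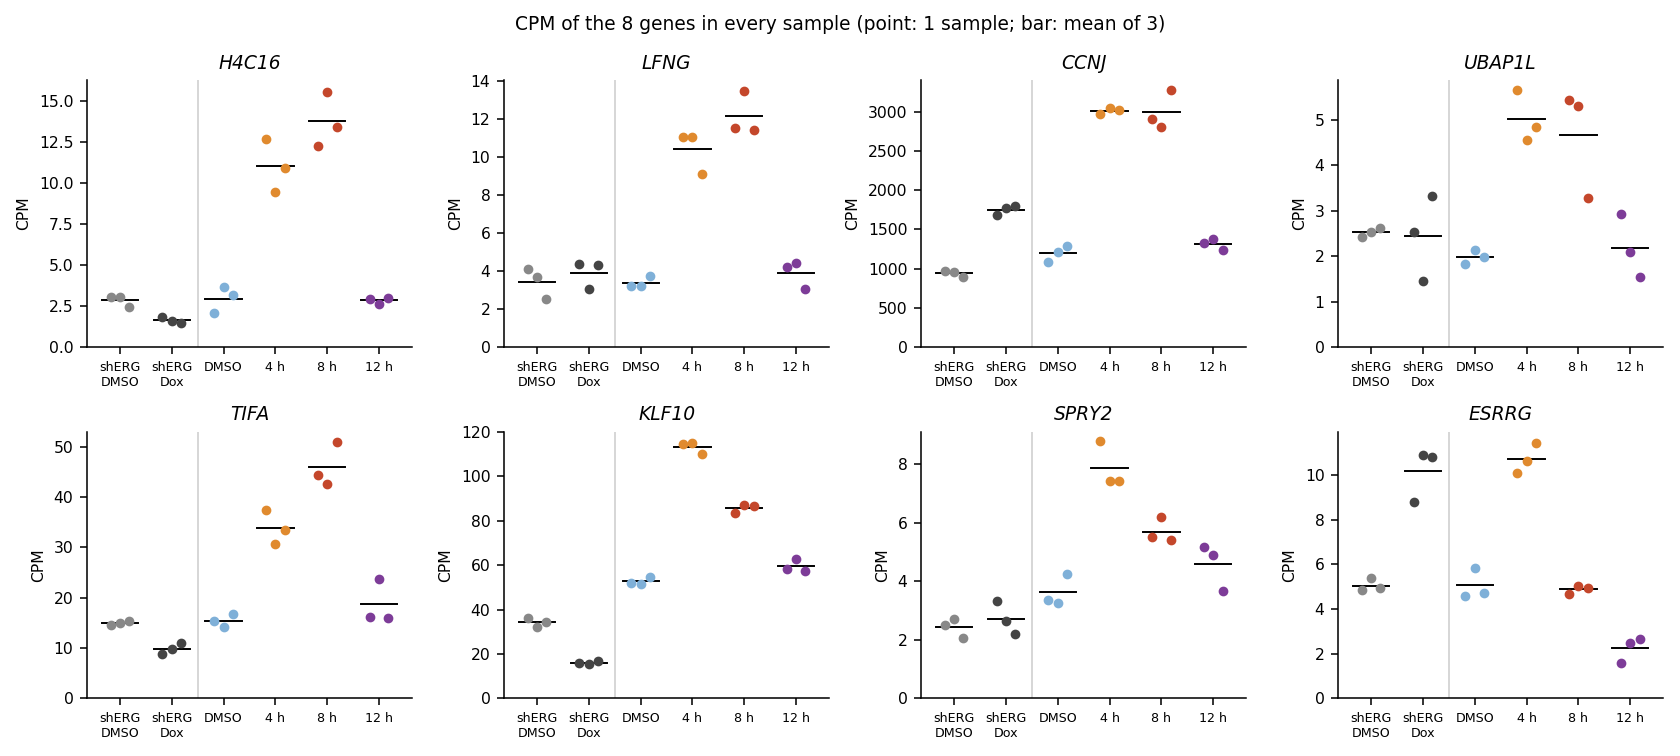
CPM (y axis, from 0) of the 8 genes in each of the 18 samples by group, with 1 point a sample and a bar at the mean of 3; the grey line parts VCaP-shERG cells from parental cells. The 4 h samples lie above the DMSO samples in all 8 panels, where the choice of genes required a higher mean at 4 h. At 8 h the samples of H4C16, LFNG, CCNJ, UBAP1L, and TIFA still lie above all DMSO samples, with 1 UBAP1L sample (3.27 CPM) lower than at 4 h.

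LFNG was the non-histone gene with the largest rise. Its values were 3.24, 3.21, and 3.73 CPM in the DMSO samples, 11.1, 11.1, and 9.09 CPM at 4 h, 11.6, 13.5, and 11.4 CPM at 8 h, and 4.19, 4.44, and 3.07 CPM at 12 h. Every 8 h sample was above every 4 h sample, and the 12 h and DMSO samples overlapped. The mean at 4 h was 10.4 ± 1.14 CPM (SD, n = 3) and that at 12 h 3.9 ± 0.73 CPM. At 8 h the log2 fold change against DMSO was 1.89 ± 0.17 SE, with an adjusted p of 1.36e-12 in limma-voom. In VCaP-shERG cells LFNG was at 4.08, 3.70, and 2.54 CPM with DMSO and at 4.36, 3.06, and 4.34 CPM after Dox. These samples overlapped, and the log2 fold change of -0.05 had a 95% interval of -0.53 to 0.42.

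The other genes of the Notch pathway, gathered after LFNG was known to be among the 8, were set beside it. Of the 4 other glycosyltransferases of Notch (MFNG, RFNG, POFUT1, and POGLUT1), none was called at 4, 8, or 12 h, and MFNG was called higher after Dox, from 0.142 to 1.19 CPM. The share of all genes called higher at 4 h was 7.28% and that called lower 2.99%, and at 12 h these shares were 17.1% and 15.4%. Among 4 receptors NOTCH1 rose and stayed high, from 10.8 CPM with DMSO to 63.4 CPM at 4 h, 148 CPM at 8 h, and 110 CPM at 12 h (log2 fold change at 12 h 3.40 ± 0.10 SE). NOTCH4, at under 1 CPM in every group mean, was called lower at 12 h and after Dox, and NOTCH2 and NOTCH3 were called in none of the 4 comparisons. Of 5 ligands DLL4 and DLL1 were called higher at all 3 times, DLL4 from 0.533 CPM to 31.0, 39.4, and 28.4 CPM and DLL1 from 3.00 CPM to 6.89, 6.94, and 5.88 CPM. DLL3 was called lower at 8 and 12 h (log2 fold change -1.09 and -1.57), and JAG1 and JAG2 were called in no comparison. DLL4 was the ligand called higher after Dox, at a low level (0.257 CPM in shERG DMSO and 0.865 CPM after Dox). The 9 genes of Notch readout and its nuclear complex went both ways, with 2 called higher at each time and 0, 1, and 2 called lower at 4, 8, and 12 h. NRARP, a feedback inhibitor of Notch, went from 27.7 CPM to 88.3, 72.6, and 68.0 CPM and HEY2 from 0.130 CPM to 0.909, 1.13, and 1.32 CPM. The coactivator genes MAML3 (at 8 and 12 h) and MAML2 (at 12 h) were called lower, and HES1 was called lower after Dox. LFNG was back near its DMSO level at 12 h, as the choice of genes required. At that time NOTCH1, DLL4, DLL1, NRARP, and HEY2 were still called higher and NOTCH4, DLL3, MAML2, and MAML3 were called lower. NOTCH1, DLL4, DLL1, and NRARP also met the limits at 4 h, so a return at 12 h would have placed them among the 8. Their difference from LFNG at 12 h therefore follows from the choice. In the list of Notch, Wnt, TGF-β, and Hedgehog genes, 5 of 19 tested genes were called higher at 4 h, 6 at 8 h, and 6 at 12 h, with 0, 1, and 2 called lower.

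TIFA rose further between 4 and 8 h. The DMSO samples had 15.3, 14.2, and 16.7 CPM, and the 4 h samples 37.4, 30.7, and 33.4 CPM. At 8 h TIFA was at 44.4, 42.7, and 50.9 CPM, above all 4 h samples, and at 12 h at 16.2, 23.8, and 16.1 CPM. The mean was 33.8 ± 3.34 CPM (SD, n = 3) at 4 h and 18.7 ± 4.40 CPM at 12 h, and 2 of the 3 samples at 12 h lay within the range of DMSO. The log2 fold change at 8 h was 1.63 ± 0.10 SE (limma-voom adjusted p = 5.56e-17). After Dox TIFA went the other way, from 14.7, 15.0, and 15.3 CPM to 8.80, 9.79, and 11.1 CPM. All 3 Dox samples were below all shERG DMSO samples (log2 fold change -0.87 ± 0.12 SE, adjusted p = 2.95e-07), a decrease that did not reach the 2-fold limit.

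TIFA and ALPK1 lie head to head on opposite strands of chromosome 4 (TIFA at 112274542-112285903 in GRCh38), and their annotated ends overlap, so reads in the overlap cannot be assigned without strand. ALPK1, the kinase that acts on TIFA, was not called at 4 h (6.42 CPM with DMSO and 8.02 CPM at 4 h). It was called higher at 8 h (14.3 CPM) and at 12 h (16.2 CPM). The neighbours thus differed at 12 h, where the choice of genes required TIFA to be back near DMSO. Whether they shared reads was not tested. The 7 other genes of the TIFA axis (TRAF2, TRAF3, TRAF6, MAP3K7, TAB1, TAB2, and TAB3) were called at no time and not after Dox. Of 15 genes of NF-κB and its targets, 9, 10, and 9 were called higher at 4, 8, and 12 h. Over all genes tested, 7.28%, 14.9%, and 17.1% were called higher at these times. After Dox none of the 15 was called. IKBKB was called lower at 8 and 12 h. TNFAIP3, which ends NF-κB signalling, went from 2.40 CPM to 112, 96.3, and 85.1 CPM, and BIRC3 from 12.1 CPM to 45.9, 120, and 76.7 CPM. CXCL8 rose to the end, from 0.496 CPM to 49.4, 72.1, and 244 CPM. ICAM1, the gene nearest outside the 12 h limit, went from 7.23 CPM to 23.8 and 43.6 CPM, and was at 9.53 CPM at 12 h, where it was not called (log2 fold change 0.42). In the list of NF-κB feedback genes, 9, 10, and 11 of 17 were called higher at 4, 8, and 12 h and none lower.

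KLF10 was highest at 4 h and then decreased in steps. It was counted at 52.0, 51.4, and 54.8 CPM with DMSO, at 114, 115, and 110 CPM at 4 h, at 83.5, 87.1, and 86.7 CPM at 8 h, and at 58.4, 62.6, and 57.5 CPM at 12 h. No 2 neighbouring groups overlapped, and even at 12 h every sample was above every DMSO sample. The means were 113 ± 2.81 CPM (SD, n = 3) at 4 h and 59.5 ± 2.75 CPM at 12 h. The log2 fold change at 8 h was 0.76 ± 0.05 SE (adjusted p = 1.58e-15 in limma-voom), below the 2-fold limit. KLF10 also had the largest response to Dox of the 8 genes, in the opposite direction. It was at 36.4, 32.2, and 34.5 CPM in the shERG DMSO samples and at 15.9, 15.3, and 16.7 CPM after Dox. This was a log2 fold change of -1.36 ± 0.09 SE (adjusted p = 3.51e-13), with 3 of 3 Dox samples lower and no overlap.

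KLF11, the closest relative of KLF10, did not pass the 2-fold limit at any time of PBITE-1, with 16.9 CPM for DMSO and 18.5, 26.1, and 11.5 CPM at 4, 8, and 12 h. After Dox it was called lower, as was KLF10, with 12.8 CPM in shERG DMSO and 6.79 CPM after Dox (log2 fold change -1.17). Of 13 tested genes of the TGF-β pathway none was called at 4 h, 2 were higher and 2 lower at 8 h, and 3 were higher and 3 lower at 12 h. Among all genes, the shares called higher were 7.28%, 14.9%, and 17.1% at 4, 8, and 12 h. Those called lower were 2.99%, 8.86%, and 15.4%. SKI, a repressor of SMAD signalling, and the receptor gene TGFBR1 were the 2 called higher at 8 h, with 322 and 100.3 CPM. TGIF2 and PMEPA1 were the 2 called lower. None of the 13 was called after Dox. In the list of immediate early transcription factors, with KLF10 itself counted, 33 of 51 tested genes were called higher at 4 h, 35 at 8 h, and 34 by 12 h, with 2 lower at each time. After Dox 11 of the 51 were lower and 1 was higher.

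SPRY2 had low counts, from 26 to 107 per sample. It was at 3.37, 3.27, and 4.26 CPM with DMSO, 8.77, 7.41, and 7.41 CPM at 4 h, 5.49, 6.18, and 5.39 CPM at 8 h, and 5.16, 4.90, and 3.67 CPM at 12 h. The 4, 8, and 12 h samples did not overlap, and the 12 h and DMSO samples did. The means were 7.86 ± 0.79 CPM (SD, n = 3) at 4 h and 4.58 ± 0.80 CPM at 12 h. At 8 h the log2 fold change was 0.71 ± 0.19 SE (limma-voom adjusted p = 0.000869), under the 2-fold limit, with 3 of 3 samples above all DMSO samples. VCaP-shERG cells had 2.50, 2.72, and 2.06 CPM with DMSO and 3.33, 2.64, and 2.21 CPM after Dox, which overlapped, with a 95% interval of the log2 fold change from -0.63 to 0.43.

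Relatives of SPRY2 moved in both directions. SPRY1 and SPRY4, which restrain the same receptors, were called lower at 4, 8, and 12 h, SPRY1 from 12.5 CPM to 5.19, 4.19, and 4.26 CPM and SPRY4 from 9.02 CPM to 2.24, 0.906, and 0.699 CPM. SPRY3 was called higher at all 3 times, from 0.0599 CPM to 1.36, 2.99, and 2.62 CPM, a range of few counts. The 3 SPRED genes were not called at any time of PBITE-1, although SPRED2 went from 38.8 CPM to 46.3 and 53.7 CPM and then to 31.0 CPM, with a log2 fold change of 0.53 at 8 h (adjusted p = 9.67e-10). After Dox SPRY3 and SPRED3 were called higher and SPRY1 lower. Among 8 tested genes induced by ERK or limiting it, PHLDA1 (3.61 CPM to 48.3, 48.5, and 16.5 CPM), DUSP5 (1.08 CPM to 11.2, 12.4, and 8.94 CPM), IER3, and ETV5 were called higher at each time. The calls of IER3 and ETV5 rested on few counts. IER3 went from 0 CPM to 1.35, 0.884, and 0.867 CPM and ETV5 from 0.0854 CPM to 1.03, 2.22, and 2.29 CPM. DUSP6, an ERK phosphatase, was called higher at 4 h but not later, with 0.938 CPM for DMSO and 2.28, 1.39, and 1.06 CPM, below the 5 CPM that the choice of the 8 genes required. DUSP4, DUSP7, and SPHK1 were not called at any time of PBITE-1. After Dox DUSP4 (4.35 and 2.03 CPM) and DUSP6 (0.753 and 0.249 CPM) were called lower. Of 14 genes of the ERK pathway and its receptors, 2, 6, and 4 were called higher at 4, 8, and 12 h. One of the 14 was called lower at 12 h, and none was called after Dox. The shares of all genes called higher at the 3 times were 7.28%, 14.9%, and 17.1%, and those called lower 2.99%, 8.86%, and 15.4%. The list of signalling feedback genes, with SPRY2 itself counted, had 22, 21, and 23 of 46 tested genes called higher and 7, 8, and 6 called lower at 4, 8, and 12 h.

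**Figure D3:**
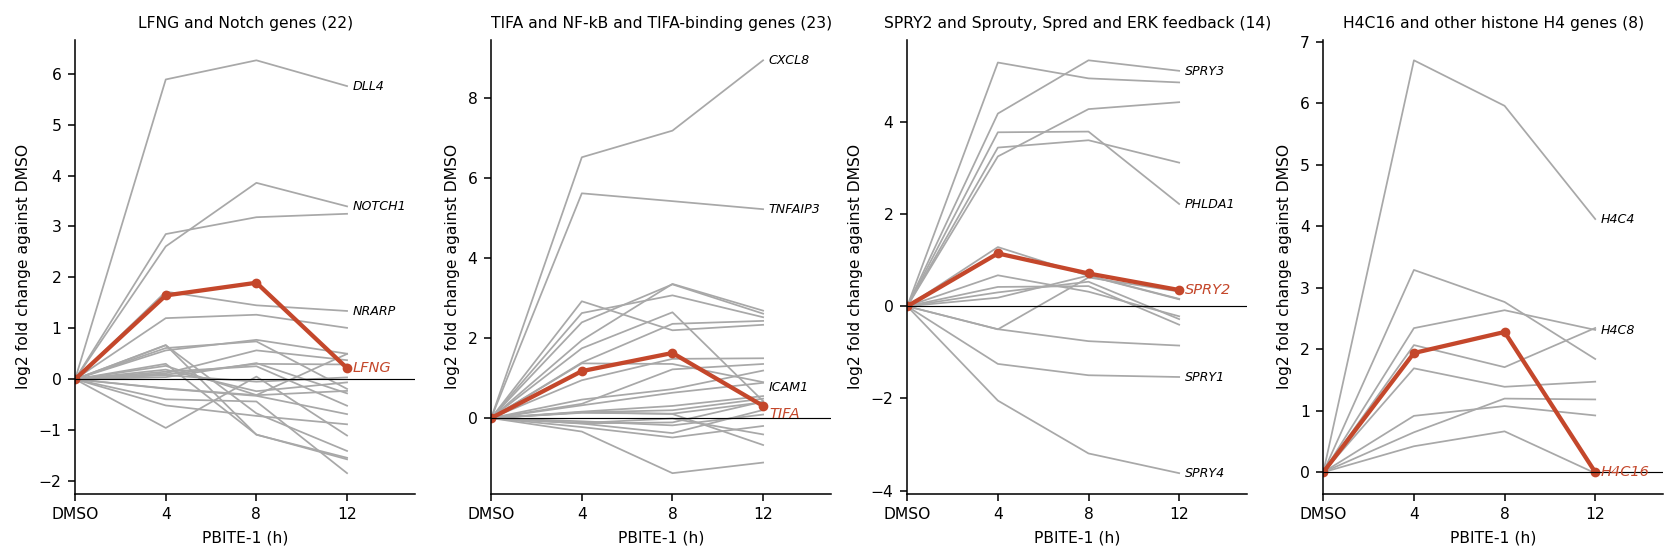
Log2 fold change against DMSO (y axis; limma-voom, DMSO at 0) by hours of PBITE-1 (x axis) for LFNG, TIFA, SPRY2, and H4C16 (red) and for the tested genes related to each (grey lines, number in the title). The red lines return to between 0.00 and 0.35 at 12 h by the choice of genes. Of the labelled grey lines, NOTCH1, DLL4, NRARP, TNFAIP3, CXCL8, SPRY3, PHLDA1, H4C4, and H4C8 end above 1. ICAM1 ends at 0.42, and SPRY1 and SPRY4 end below -1. Lines without a label end on either side of 0. Among them MFNG, NOTCH4, DLL3, MAML2, MAML3, and IKBKB end below -1, and others, such as RBPJ (0.04) and TAB2 (0.09), end near 0.

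ESRRG was the one gene of the 8 whose 12 h samples all lay below its DMSO samples. The DMSO samples were at 4.59, 5.85, and 4.73 CPM and the 4 h samples at 10.1, 10.6, and 11.4 CPM. At 8 h it was at 4.69, 5.04, and 4.95 CPM, all within the range of DMSO, and at 12 h at 1.57, 2.48, and 2.67 CPM, below every DMSO sample. The rise and fall were of like size, with fitted log2 values against DMSO of 1.14 at 4 h and -1.13 at 12 h, which are descriptions, as the choice of genes used both times. The means were 10.7 ± 0.69 CPM (SD, n = 3) and 2.24 ± 0.59 CPM. At 8 h the log2 fold change was 0.02, with a 95% interval of -0.33 to 0.38 and an adjusted p of 0.917. After Dox ESRRG was higher, at 8.80, 10.9, and 10.8 CPM against 4.84, 5.37, and 4.95 CPM in shERG DMSO. This log2 fold change of 0.73 ± 0.15 SE (adjusted p = 0.000163), in 3 of 3 samples, stayed under the 2-fold limit, and the Dox samples overlapped those at 4 h of PBITE-1.

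ESRRA, the most abundant of the family, was called in no comparison, with 61.5 CPM for DMSO and 61.4, 55.4, and 55.3 CPM at 4, 8, and 12 h, and ESRRB had too few counts to be tested. Of 10 tested cofactors and metabolic targets of these receptors, none was called at 4 or 8 h. Among all genes, 7.28% were called higher and 2.99% lower at 4 h, and 14.9% and 8.86% at 8 h. PPARGC1B, a coactivator of the family, was called lower at 12 h (35.2 CPM with DMSO and 9.02 CPM at 12 h) and after Dox (55.0 and 26.5 CPM). CYCS was called lower after Dox, and PERM1 higher at a low level (0.256 CPM in shERG DMSO and 0.820 CPM after Dox).

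CCNJ stood out by its level. Its counts were 12755 to 50757 per sample, and per kilobase of its longest transcript its DMSO level of 291 CPM ranked 119th of 14121 tested genes with a length. The next of the 8 genes, KLF10, was at 14.4 CPM per kilobase. CCNJ was at 1090.0, 1211, and 1285 CPM with DMSO, 2969, 3045, and 3015 CPM at 4 h, 2903, 2808, and 3281 CPM at 8 h, and 1331, 1381, and 1242 CPM at 12 h. The 4 and 8 h samples overlapped, as did the 12 h and DMSO samples. The means were 3010 ± 38.3 CPM (SD, n = 3) at 4 h and 1318 ± 70.1 CPM at 12 h. The log2 fold change at 8 h was 1.39 ± 0.04 SE, with an adjusted p of 1.76e-27 in limma-voom.

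After Dox CCNJ was higher in 3 of 3 samples, at 1680.1, 1771, and 1793 CPM against 965, 959, and 894 CPM in shERG DMSO. The log2 fold change was 0.64 ± 0.03 SE (adjusted p = 2.33e-17), under the 2-fold limit. CCNJ and ESRRG were thus the 2 of the 8 genes that were higher after Dox at the adjusted p. CCNJ (chr10:96043394-96060870, GRCh38) lies within the antisense gene ENTPD1-AS1 on the other strand, and without the strand setting of the counting the reads of the pair cannot be told apart. Its relative CCNJL had too few counts to be tested. Of 17 other cyclins and cyclin-dependent kinases, none was called at 4 h, CCND2, CCND3, and CCNG2 were called higher at 8 and 12 h, and CDK4 and CCNE2 were called lower at 12 h. After Dox 9 of the 17 were called lower and CCNG2 higher. In the list of cell cycle regulators 3, 7, and 7 of 22 were called higher at 4, 8, and 12 h, with 1, 1, and 7 lower, and 12 lower and 2 higher after Dox. Shares of all genes called higher were 7.28%, 14.9%, and 17.1% at 4, 8, and 12 h, and 12.0% after Dox. Shares called lower were 2.99%, 8.86%, 15.4%, and 7.19%.

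UBAP1L had low counts, from 17 to 95 per sample. A processed pseudogene on the other strand, AC013553.1, overlaps it, and reads in the overlap cannot be assigned without strand. UBAP1L was at 1.82, 2.14, and 1.98 CPM with DMSO, 5.65, 4.55, and 4.84 CPM at 4 h, 5.43, 5.31, and 3.27 CPM at 8 h, and 2.92, 2.09, and 1.53 CPM at 12 h. The third sample at 8 h, which had the smallest total of the 18, was lower than the other two but above all DMSO and 12 h samples. The means were 5.01 ± 0.57 CPM (SD, n = 3) at 4 h and 2.18 ± 0.70 CPM at 12 h. The log2 fold change at 8 h was 1.31 ± 0.25 SE (limma-voom adjusted p = 1.28e-05). With shERG DMSO it was at 2.42, 2.53, and 2.61 CPM and after Dox at 2.54, 1.45, and 3.32 CPM, a spread that left a 95% interval of the log2 fold change from -0.96 to 0.20. Of 9 tested genes of ESCRT-I none was called at 4 h, when 7.28% of all genes were called higher and 2.99% lower. At 8 h VPS37D was called higher (0.705 CPM with DMSO and 1.39 CPM at 8 h) and MVB12B lower, and at 12 h MVB12B was lower. After Dox VPS37D was higher (0.291 CPM in shERG DMSO and 2.13 CPM after Dox).

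H4C16 had the largest 4 h ratio, 3.33, and was highest at 8 h. Its values were 2.09, 3.65, and 3.15 CPM with DMSO, 12.7, 9.46, and 10.9 CPM at 4 h, 12.3, 15.6, and 13.4 CPM at 8 h, and 2.92, 2.61, and 3.00 CPM at 12 h. The 4 and 8 h samples overlapped, and the 12 h samples lay within the range of DMSO. The means were 11.0 ± 1.62 CPM (SD, n = 3) at 4 h and 2.84 ± 0.20 CPM at 12 h. At 8 h the log2 fold change was 2.28 ± 0.19 SE (limma-voom adjusted p = 1.58e-13). After Dox H4C16 was at 1.82, 1.62, and 1.45 CPM against 3.03, 3.09, and 2.47 CPM, lower in 3 of 3 samples with a log2 fold change of -1.05 ± 0.28 SE (adjusted p = 0.00152). This call rested on the scaling and on single samples, since it was -0.79 with scaling by the library size alone, -0.99 without shERG DMSO sample 2, and -0.97 without Dox sample 3.

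Histone H4 genes encode the same protein, and how reads that match more than 1 of them were counted was not checked. Of the 8 other H4 genes tested, 5, 7, and 6 were called higher at 4, 8, and 12 h, and 2 were called lower after Dox. The shares over all genes were 7.28%, 14.9%, and 17.1% higher at these times, and 7.19% lower after Dox. H4C8 stayed high, from 4.55 CPM to 22.7, 27.5, and 22.2 CPM, whereas H4C4 declined from 7.59 CPM at 4 h to 4.46 and 1.36 CPM, which was still above its DMSO level of 0.0659 CPM. Of the 56 tested genes in the histone list, H4C16 included, 38, 42, and 36 were called higher at 4, 8, and 12 h and none lower, and after Dox 13 were lower and 2 higher. H4C16 was the only gene of that list among the 8.

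**Figure D4:**
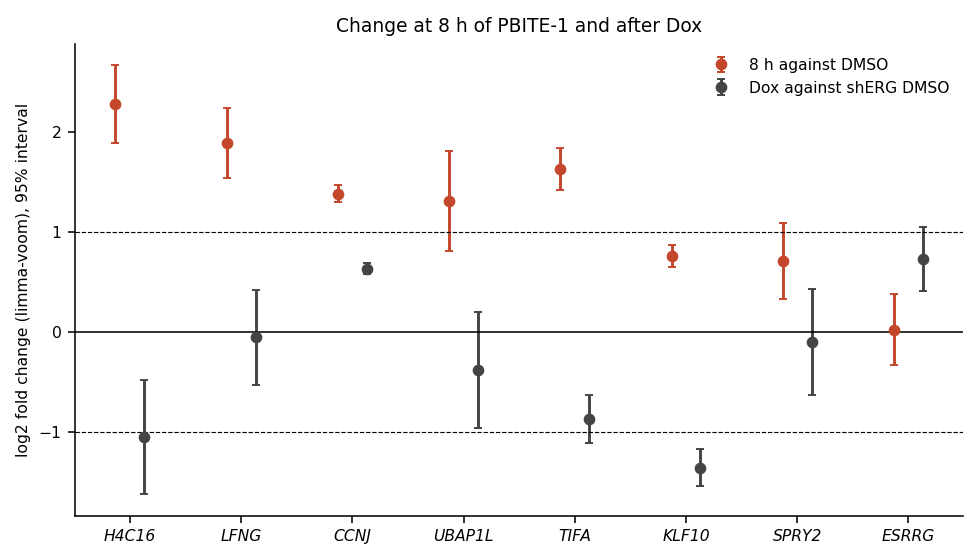
Log2 fold change of the 8 genes (y axis; limma-voom) at 8 h of PBITE-1 against DMSO (red) and after Dox against shERG DMSO (dark grey), with 95% intervals and dashed lines at the 2-fold limit. At 8 h H4C16, LFNG, TIFA, CCNJ, and UBAP1L lie above the upper line, and after Dox KLF10 (-1.36) and H4C16 (-1.05) lie below the lower line while CCNJ (0.64) and ESRRG (0.73) lie above 0.

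Set side by side, the changes at 8 h and after Dox both had an adjusted p under 0.05 for CCNJ, which was higher in both, and for H4C16, TIFA, and KLF10, which were higher at 8 h and lower after Dox. LFNG, UBAP1L, and SPRY2 passed that threshold at 8 h but not after Dox, and ESRRG after Dox but not at 8 h. Of all genes tested, 72.9% passed it at 8 h and 70.4% after Dox. The share that passed it in both was not counted, so these groupings cannot be taken as particular to the 8 genes. Whether the 2 treatments differed in effect was not tested. Between the DMSO groups of the 2 cell lines, KLF10 was at 52.7 CPM in parental DMSO samples and 34.4 CPM in shERG DMSO, CCNJ at 1196 and 939 CPM, and SPRY2 at 3.63 and 2.42 CPM, each without overlap. UBAP1L was lower in the parental cells (1.98 and 2.52 CPM), also without overlap, whereas LFNG, TIFA, ESRRG, and H4C16 overlapped. These lines were fitted separately, and their levels are given side by side without a test. The share of all genes without overlap between these DMSO groups was not counted, so a lack of overlap cannot be taken as particular to these genes. CPM after Dox were not adjusted for composition: with scaling by the library size alone, the median log2 fold change of all genes after Dox was 0.28, against 0.02 with TMM, so that fitted values of that comparison lie below the ratios of the CPM given here.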

How the data were processed

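RNA-seq of rRNA-depleted total RNA was sequenced in 18 VCaP samples. The authors deposited raw counts for each gene, which were whole numbers. The submitters' processing notes name STAR, featureCounts, and hg38, whereas the methods of the study name Kallisto. The annotation and the strand setting were not given in the sources used here. Symbols were found for 22011 of 22034 identifiers, and positions were taken from GENCODE 29 on GRCh38.

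The 8 genes and all gene lists were chosen with earlier results of these data known. Genes related to each of the 8 (Notch, NF-κB, Sprouty, and the like) were listed after the 8 were known, and those given by name were chosen after their values were seen, except for the 8, ERG, and the genes next to the limits. The rule for names took all 8 genes, the 3 genes on either side of each limit, and ERG.

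Genes were filtered with filterByExpr over the 6 groups (14164 kept, 7870 not), scaled by TMM in edgeR 4.0.16 and analysed by limma-voom with eBayes (limma 3.58.1, R 4.3.3), with Benjamini-Hochberg adjustment over all genes kept. A gene was called when its adjusted p was under 0.05 and its log2 fold change exceeded 1 in either direction. The 12 parental and the 6 VCaP-shERG samples were fitted separately. No test of any of the 8 genes by itself is given at 4 or 12 h, as the choice used those samples. The counts for the lists that hold KLF10, SPRY2, or H4C16 include these genes at those times. CPM in the text are counts divided by column totals. The study calls its samples biological replicates, but neither it nor the labels say that those of a group came from separate cultures, and p-values then measure the spread between samples, which may be technical. No libraries were duplicates, as chi-square per degree of freedom between replicates was 1.70 to 4.96. The fit was tested on simulated data. As alternatives, the quasi-likelihood test of edgeR, DESeq2 1.42.0, other scalings and filters, a single fit of 18 samples, a replicate block, and leaving out each sample were run.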

Additional observations from a re-analysis of the deposited data

Results flagged for a closer look

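ESRRG went in opposite directions at 4 and 12 h of PBITE-1. All 3 samples at 4 h were above all DMSO samples and all 3 at 12 h were below them, and the log2 of the 12 h to 4 h ratio of mean CPM plus 0.5 was -2.03, from 21 to 40 counts per sample at 12 h. The difference was not tested, because the choice of the genes used both times.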

How the results depend on the processing

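The number of genes chosen moved most with the limits. It was 19 with a minimum of 1 CPM, 1 with a 4 h ratio of at least 3 (H4C16), 2 with a 12 h ratio of at most 1, and 14 with a 12 h ratio of at most 1.5. Leaving out 1 sample gave 5 to 9 genes, with 5 without DMSO sample 3, where TIFA, SPRY2, and ESRRG were lost.

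The 5 genes called higher and 0 called lower at 8 h were so under all 14 alternatives. After Dox 0 were called higher throughout, and 2 were called lower except for 1 under scaling by the library size alone and 1 to 2 when a sample was left out (1 without shERG DMSO sample 2 or Dox sample 3, H4C16 being lost). The median log2 fold change of the 8 genes after Dox, -0.24, was 0.021 with the library size alone and -0.38 to -0.067 with a sample left out. Among single genes the sign turned for ESRRG, LFNG, and SPRY2, whose values were close to 0. ESRRG at 8 h was -0.043 with the library size alone, -0.0046 in a single fit of 18 samples, and -0.037 to 0.13 when a sample was left out. LFNG after Dox was 0.21 with the library size alone and -0.26 to 0.11 with a sample left out, and SPRY2 was 0.16 and -0.25 to 0.044.

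Replicate numbers were shared by the groups but did not pair the samples, since deviations of samples with the same number correlated at -0.023 to 0.038 (r, across genes). With the replicate block 5 of the 8 genes were called higher at 8 h, and 2 were called lower after Dox, and no call of the 8 genes changed. Depth limits UBAP1L, SPRY2, LFNG, ESRRG, and H4C16, with 17 to 232 counts per sample.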
